A study of Rattus norvegicus with 6 samples.

Results

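Gfap-positive astrocytes were nuclei that passed an astrocyte gate and held at least 2 transcripts of Gfap. A transcript is counted here as a unique molecular identifier (UMI), which stands for 1 captured RNA molecule. The gate required at least 500 detected genes, at most 5% mitochondrial UMIs and at least 3 UMIs summed over Aqp4, Gja1, Gli3, Rfx4 and Acsbg1. It also required at most 1 UMI of Gad1 and Gad2, no UMI of Mog, Opalin, Pdgfra or Csf1r, and at most 4 UMIs summed over 5 genes of ciliated ependymal cells (Foxj1, Drc12, Dnah11, Spag17 and Cfap43). These criteria, selected on the UMI counts of the genes named, gave 264 nuclei, which were 6.92% of the 3814 gate nuclei and 0.429% of the 61609 nuclei that passed the gene and mitochondrial filters. Another 3057 gate nuclei held no Gfap UMI and served as the contrast, called Gfap-zero astrocytes, and 493 held exactly 1.

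The nuclei came from punches of the nucleus accumbens of Sprague-Dawley rats aged 90 to 120 days. Every rat had self-administered heroin, for 7 days at 1 response per infusion, 4 days at 3 responses, a progressive ratio test on day 12 and 3 responses again on days 13 and 14. One group then received saline and the other naloxone, an opioid receptor antagonist, and tissue was taken 1 h later. Tissue of 12 rats (6 male, 6 female) was combined into 6 libraries, saline replicates 1 to 3 and naloxone replicates 4 to 6, each holding both sexes. No heroin-free animals were analysed here, so every value below is from heroin-experienced tissue. Because each library pools rats, the p-values below measure the spread between pools.

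GFAP is an intermediate filament protein of the astrocyte cytoskeleton. Its abundance differs between astrocytes: it is classically high in the fibrous astrocytes of white matter, in astrocytes along the brain surface and vessels, and after injury, and low in many protoplasmic astrocytes of striatal grey matter. The fibrous and reactive states are known for the adhesion receptor CD44, the matrix protein tenascin-C and the transcription factor STAT3. Protoplasmic astrocytes are known for transporters that clear glutamate and GABA.

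The libraries held 8094 to 15020 barcodes and 55739350 to 76272798 UMIs. The labels state 44592 sequenced nuclei, against 64260 barcodes in the matrices; which filter separates these numbers is not given in the sources used here. Saline replicates 1 to 3 gave 49, 42 and 39 Gfap-positive nuclei, and naloxone replicates 4 to 6 gave 68, 27 and 39. These nuclei held 70545 to 219204 UMIs per library in sum. The median Gfap-positive nucleus held 2623 to 4208 UMIs and the median Gfap-zero nucleus 2258 to 3628, so the positive class was somewhat deeper by its median in every library. The deepest nuclei were Gfap-zero in every library, where the largest held 11367 to 34251 UMIs. The largest positive nucleus held 3945 to 9840. The mitochondrial share of UMIs in the positive nuclei was 0.766% in naloxone replicate 5 and at most 0.442% in the other 5 libraries. Of the 264 nuclei, 2 were called doublets, and 6 carried a barcode sequence that also occurred in another library. No barcode sequence was shared by Gfap-positive nuclei of different libraries.

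The genes that define the population are described without a test. Gfap (ENSRNOG00000002919) stood at 1151 ± 230 CPM (its UMIs as a share of all UMIs summed, scaled to a common total) in the positive nuclei (SD, n = 6 libraries), between 806 and 1401, and at 0 in the contrast by construction. Of the positive nuclei, 132 held 2 Gfap UMIs, 85 held 3 to 5 and 47 held 6 or more, up to 30. Aqp4, the water channel of astrocyte endfeet, stood at 424 ± 77.8 CPM in the positive and 240 ± 27.2 CPM in the Gfap-zero nuclei and was higher in the positive nuclei of 6 of 6 libraries. Gja1, the connexin-43 gap junction gene, stood at 458 ± 53.1 and 438 ± 33.4 CPM. The transcription factor gene Gli3 stood at 873 ± 123 and 849 ± 34.7 CPM. Over all 61609 filtered nuclei the same 4 genes stood at 8.01 CPM (Gfap), 17.7 CPM (Aqp4), 33.0 CPM (Gja1) and 86.7 CPM (Gli3). The rule selected nuclei on these 4 genes, so their presence and their higher level in the positive nuclei were set by the selection.

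Nuclei just inside and just outside the threshold were close in depth. Those with 2 Gfap UMIs had a median of 3060 UMIs and 1677 genes, and those with 1 had 2998 UMIs and 1648 genes. Their Aqp4 levels were 367 and 337 CPM, and their Gja1 levels 438 and 478 CPM. Some nuclei of other types also held Gfap UMIs, and the source of these UMIs was not tested. Among nuclei with at least 3 Gad1 and Gad2 UMIs and no UMI of the gate genes, Mog or Opalin, 0.509% to 1.05% held a Gfap UMI and at most 0.111% held 2, at median depths of 6640.5 to 10563 UMIs. Among nuclei with at least 3 Mog and Opalin UMIs, at most 1 of Gad1 and Gad2 and none of the gate genes, the shares were 0.58% to 1.53% and at most 0.125%, at median depths of 1495 to 2395 UMIs. The share with at least 2 Gfap UMIs in the astrocyte gate was above these levels in all 6 libraries.

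The share of gate nuclei that were Gfap-positive did not differ detectably between the treatments. After saline it was 9.26% (95% Clopper-Pearson interval 6.93 to 12.1), 4.42% (3.20 to 5.92) and 6.78% (4.87 to 9.16). After naloxone it was 11.2% (8.83 to 14.0), 4.43% (2.94 to 6.37) and 7.17% (5.15 to 9.67). Both groups held 1 high library, 1 low library and 1 in between, and they overlapped across their ranges. The means were 6.82% ± 2.42 and 7.61% ± 3.43 (SD, n = 3 libraries each), a difference of 0.791 percentage points (exact two-sided permutation test, p = 0.7; 3 libraries against 3 cannot go below 0.1). With each nucleus thinned to 2000 UMIs, to remove differences in depth, the means were 4.47% and 5.53% (exact permutation p = 0.6), with 74 to 311 shallower gate nuclei per library left out. Gfap itself, summed over the whole gate, stood at 164, 102 and 98.3 CPM after saline and 221, 103 and 98.3 CPM after naloxone. The lowest 2 libraries of each group were nearly level and saline replicate 1 and naloxone replicate 4 stood above them. The group means were 121 ± 36.6 and 141 ± 69.5 CPM (exact permutation p = 0.7), and without naloxone replicate 4 the difference changed sign to -20.6 CPM. The difference in share also changed sign, to -0.411 points without saline replicate 2 and -1.02 points without naloxone replicate 4. Intervals on shares cover counting error only.

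**Figure D1:**
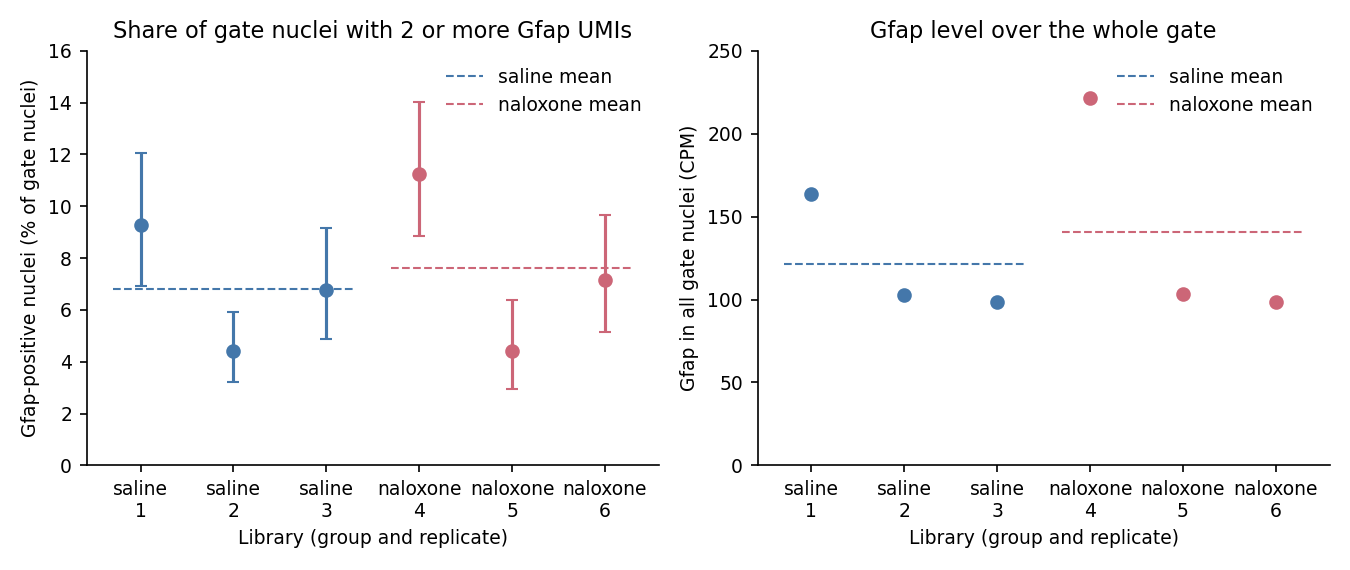
Left, the percentage of astrocyte-gate nuclei with 2 or more Gfap UMIs in each library, with 95% Clopper-Pearson intervals; right, Gfap CPM summed over all gate nuclei of each library. Dashed lines are the means of 3 libraries per group; the groups overlap in both panels, and naloxone replicate 4 is the highest library in each (11.2% and 221 CPM).

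Gfap-positive nuclei were then compared with Gfap-zero nuclei of the same libraries, to ask which other genes differ with Gfap. The genes read by the rule were left out. The classes still differed in depth and in summed precursor markers (below), so the genes tested were not fully independent of the rule. Tnc, Adamts9, Cd44, Igfbp5, Stat3 and Fmn1 were higher in the positive nuclei, and Luzp2, Syt1, Snap25 and the precursor marker Pcdh15 were lower. In all, 385 of 8367 genes (4.6%) passed edgeR's quasi-likelihood test at an adjusted p of 0.05 with library as a block, 97 higher (1.16%) and 288 lower (3.44%). DESeq2 called 262 of the genes. In nuclei of 2000 to 8000 UMIs, 98 passed (38 higher, 60 lower). There Tnc, Adamts9, Igfbp5, Stat3, Fmn1, Luzp2 and Pcdh15 passed. Syt1 (-0.40, adjusted p = 0.285), Snap25 (-0.28, 0.812) and Grm5 (-0.31, 0.106) did not pass, and Cd44 was not tested. Of the genes named below, Ror1, Samd11, Trpm3, Slc7a11, Atp1b2, Dtna, Lrig1, Bmpr1b, Lama2, Apoe and Zfp804b did not pass there either. Their edgeR adjusted p ran from 0.0689 (Ror1) to 0.647 (Dtna).

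Tnc (ENSRNOG00000058645), which encodes the matrix glycoprotein tenascin-C, had the largest log2 increase of all genes tested. It stood at 233, 68.0 and 126 CPM in the positive nuclei of the saline libraries, and at 169, 0 and 56.2 CPM in those of the naloxone libraries. In Gfap-zero nuclei it stayed between 10.96 and 26.5 CPM. The positive nuclei were thus higher in 5 of 6 libraries, and naloxone replicate 5, the library with the fewest positive nuclei, held no Tnc UMI in them. The fitted log2 change was 2.66 ± 0.28 (SE), with an adjusted p of 4.43e-09 by edgeR. Leaving out any one library kept it between 2.47 and 2.81.

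Adamts9 (ENSRNOG00000023257), a secreted metalloprotease gene whose product cleaves matrix proteoglycans, stood at 203, 136 and 57.2 CPM in positive nuclei after saline and at 274, 85.1 and 125 CPM after naloxone. Its range in Gfap-zero nuclei was 32.3 to 75.5 CPM. Saline replicate 3 was the only library in which the positive nuclei were not higher (log2 change 1.36 ± 0.21, edgeR adjusted p = 1.58e-05). Cd44 (ENSRNOG00000006094), the hyaluronan receptor, stood at 35.8, 25.5 and 28.6 CPM after saline and 73.0, 0 and 56.2 CPM after naloxone, against 5.69 to 16.9 CPM in Gfap-zero nuclei. Only naloxone replicate 5 ran the other way (log2 change 2.02 ± 0.39, edgeR adjusted p = 0.000442). The Cd44 values rest on 39 UMIs in the positive nuclei.

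Stat3 (ENSRNOG00000019742), a transcription factor activated by cytokine receptors, stood at 179, 178 and 85.8 CPM in positive nuclei after saline and 109, 113 and 162 CPM after naloxone. It was higher than in Gfap-zero nuclei, at 46.9 to 94.0 CPM, in each of the 6 libraries (log2 change 1.07 ± 0.19, edgeR adjusted p = 0.000107). Fmn1 (ENSRNOG00000031760), a formin that nucleates actin filaments, averaged 174 ± 48.0 against 82.7 ± 17.9 CPM (SD, n = 6 libraries), a log2 change of 1.08. Cd38, which encodes an enzyme that consumes NAD, averaged 98.9 ± 34.7 against 46.8 ± 6.79 CPM, with a log2 change of 1.08. Both were higher in the positive nuclei of 6 of 6 libraries. Stk32a, a serine/threonine kinase gene, averaged 73.8 ± 51.5 against 26.3 ± 7.97 CPM. Its highest value, 173 CPM, was in naloxone replicate 4, and without that library its adjusted p by edgeR was 0.0608.

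The other genes named by the rule on size and direction were Fam20a, Pla2g7, Rpe65, Ror1, Ccdc148, Igfbp5, Samd11 and Aldh1a1. Their log2 changes were 1.78, 1.70, 1.43, 1.35, 1.25, 1.24, 1.20 and 1.15. Pla2g7 encodes a secreted phospholipase that degrades platelet-activating factor, Igfbp5 a binding protein of insulin-like growth factors, and Aldh1a1 an enzyme of retinoic acid synthesis. Ccdc148, Igfbp5 and Pla2g7 passed the test whichever library was left out. Fam20a did not pass without naloxone replicate 4 (edgeR adjusted p = 0.117), nor Aldh1a1 without saline replicate 3 (0.0642). Ror1 failed without naloxone replicate 4 or 6 (up to 0.0965), Rpe65 without saline replicate 1 or 2 or naloxone replicate 5 (up to 0.169), and Samd11 without any 1 of 4 libraries, saline replicates 2 and 3 and naloxone replicates 4 and 6 (up to 0.116).

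**Figure D2:**
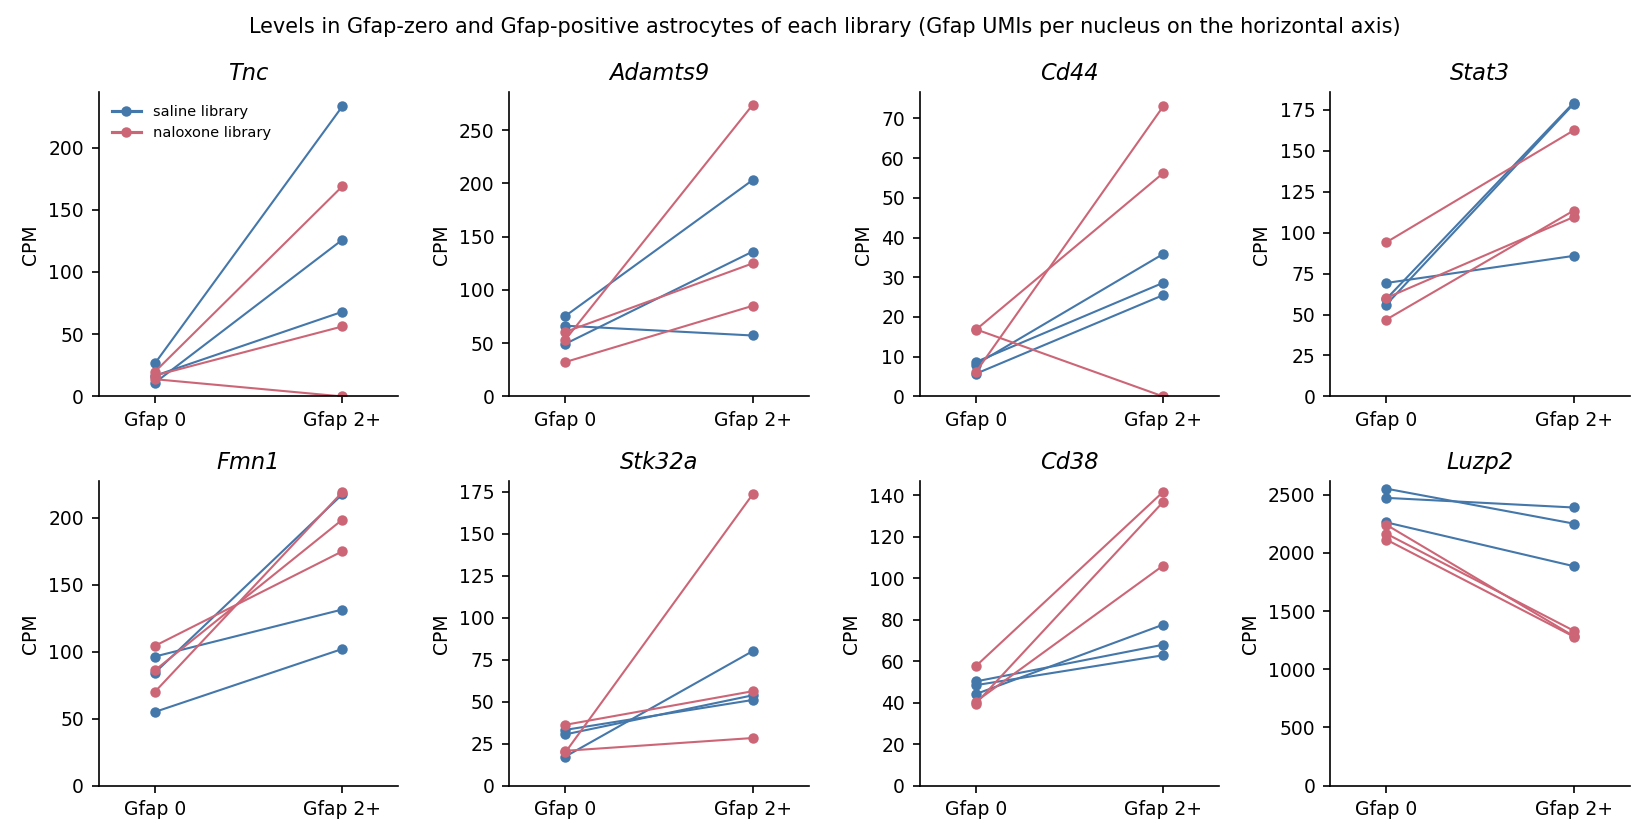
CPM of 8 genes in Gfap-zero (left point) and Gfap-positive nuclei (right point); each line is 1 library, blue for saline and red for naloxone. Stat3, Fmn1, Stk32a and Cd38 go up in all 6 libraries, Tnc and Cd44 drop to 0 in naloxone replicate 5, and Luzp2 goes down in all 6, further in the naloxone libraries (1282 to 1332 CPM) than in the saline libraries (1887 to 2391 CPM).

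Promoter sequence was examined for the genes that were higher. Windows of 250 bases before the RefSeq transcription start (build GRCr8) were found for 30 of 34 genes, namely Gfap and the genes named as higher in either set of nuclei tested. The motifs searched were TTCNNNGAA (the STAT site), TGANTCA (the AP-1 site) and the nuclear factor I site (TGGC, 5 free bases, GCCA). Each reads the same on both strands, and the matches found lie in different windows, so none overlap. The STAT letters occurred in 1 of the 30 windows (Dtna) and the AP-1 letters in 1 (Pla2g7), and the nuclear factor I letters in 0. Over all 33469 windows of that length the shares were 7.67%, 6.34% and 0.732%. The windows of Gfap (chr10:88361662-88361911, minus strand), Tnc (chr5:82476132-82476381, minus strand) and Pla2g7 (chr9:24901748-24901997, minus strand) follow, 5′ to 3′. They are shown because Gfap defines the population, Tnc had the largest increase and Pla2g7 holds the AP-1 match, in capitals.
Gfap: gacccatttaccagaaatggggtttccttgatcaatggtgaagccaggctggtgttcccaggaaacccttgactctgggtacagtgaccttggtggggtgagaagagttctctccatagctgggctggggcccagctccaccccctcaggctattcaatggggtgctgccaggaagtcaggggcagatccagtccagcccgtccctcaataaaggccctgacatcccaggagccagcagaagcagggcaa
Tnc: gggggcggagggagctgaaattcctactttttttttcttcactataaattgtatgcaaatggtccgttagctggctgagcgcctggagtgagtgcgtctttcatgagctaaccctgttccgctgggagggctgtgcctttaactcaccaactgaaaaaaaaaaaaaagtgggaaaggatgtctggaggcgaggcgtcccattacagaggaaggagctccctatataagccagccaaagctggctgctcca
Pla2g7: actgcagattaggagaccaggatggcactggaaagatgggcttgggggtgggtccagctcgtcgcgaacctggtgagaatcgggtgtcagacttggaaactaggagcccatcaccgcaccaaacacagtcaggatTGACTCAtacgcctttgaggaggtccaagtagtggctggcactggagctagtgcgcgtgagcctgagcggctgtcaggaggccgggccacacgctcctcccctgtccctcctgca

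By role, the calls were spread over several lists. The lists were chosen with earlier results of these data known, so their medians are descriptions. Of 18 fibrous astrocyte genes, 10 were tested and 4 rose, Tnc, Cd44, Igfbp5 and Agt, with a median log2 change of 0.44 against 0.0087 over all genes tested. Agt, the angiotensinogen gene, averaged 170.5 ± 93.3 against 101 ± 39.5 CPM (log2 change 0.73), and lost the call without naloxone replicate 4 (edgeR adjusted p = 0.0855). The other 6, among them S100b at 0.20, Clu at 0.27 and Fabp7 at -0.01, did not pass. Of 24 genes of reactive astrocytes, 4 were tested, and Stat3 and Cd44 rose. Cp (0.87) and Il6st (0.49) did not pass. The other 20 were not tested, and Lcn2, Serpina3n and C3 had no UMI in the positive nuclei.

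None of the 4 tested genes of intermediate filaments and cell shape passed. Synm, which encodes a filament partner of GFAP, had a log2 change of 0.75 with an edgeR adjusted p of 0.28. Vim, the vimentin gene, was too low to test, with 7 UMIs in the positive and 21 in the Gfap-zero nuclei (7.59 ± 6.61 and 2.25 CPM). Nes, the nestin gene, had 0 UMIs in the positive nuclei. Of 9 tested genes of neural stem cells and their niche only Lrig1 rose (0.53). It lost the call without saline replicate 3 or naloxone replicate 4 or 6. Of 14 tested genes of hedgehog and BMP signalling only Bmpr1b rose (0.35), and not without saline replicate 2 or naloxone replicate 6.

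Among 13 tested genes of transmitter uptake and the glutamine cycle, 2 rose, with a median log2 change of 0.18 against 0.0087 over all genes. Slc1a2, the main glutamate transporter gene, had a log2 change of -0.04, Slc1a3 0.15 and Glul, the glutamine synthetase gene, 0.09, none of which passed. Slc6a11, the GABA transporter GAT-3, rose from 547 ± 129.9 to 797 ± 133 CPM (log2 change 0.53, edgeR adjusted p = 0.000149) and was higher in the positive nuclei of 6 of 6 libraries. Slc7a11, a cystine-glutamate exchanger, was called as well (0.36) but did not pass without saline replicate 1 or without naloxone replicate 4, 5 or 6. Among 13 tested genes of gap junctions, ion and water handling, Slc4a4 (0.42), Atp1b2 (0.46) and Dtna (0.26) rose. They encode a bicarbonate cotransporter, a sodium pump subunit and a dystrobrevin of the endfoot. Atp1b2 was lost without naloxone replicate 4 and Dtna without any 1 of 5 libraries (not saline replicate 3). The potassium channel genes Kcnj10 (-0.04) and Kcnj16 (-0.17) and the connexin gene Gjb6 (0.03) did not pass.

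Among 17 tested genes of matrix and synapse organisers, Tnc, Adamts9, Lama2 and Sparcl1 (0.44) rose, and Spock3 (-1.53) and Gpc6 (-0.48) fell. Sparcl1 and Gpc6 are named after their values were seen. Lama2, a laminin chain gene, averaged 283 ± 162 against 167 ± 53.0 CPM (0.64) and lost the call without saline replicate 3 or naloxone replicate 5. Of the 16 receptor genes tested, Ednrb, the endothelin B receptor gene, rose (363 ± 154 against 229 ± 49.1 CPM, 0.66) and Grm5, a metabotropic glutamate receptor gene, fell (-0.49). Among 19 tested genes of energy and lipid metabolism, only Apoe rose (0.33), and not without saline replicate 2 or naloxone replicate 4. Of 13 tested glucocorticoid response genes only Sgk1 fell (-1.88, from 8 UMIs in the positive nuclei). None of 16 heat shock genes, 14 clock genes or 10 regional transcription factor genes passed. Luzp2, a member of the protoplasmic list, fell from 2302 ± 174 to 1738 ± 508 CPM (log2 change -0.44, edgeR adjusted p = 0.000477), while Slc6a11, Slc4a4, Trpm3 and Ptprz1 of the same list of 17 tested genes rose.

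The largest changes of the contrast were decreases. Cntnap4, a neurexin-family adhesion gene, had 291 UMIs in the Gfap-zero nuclei (30.1 CPM) and 0 in the positive nuclei, which places it at least 9.13-fold lower with a floor of 3 counts over all positive nuclei. Cdh12 (3.04 against 129 CPM), Il1rapl2 (12.1 against 261), Scn9a, Cntnap5b, Hs3st4, Unc5d, Grm8, Car10, Rab3c, Zfp804b and Pcdh15 followed, with log2 changes from -4.78 to -3.31 and lower values in all 6 libraries. These 12 genes held 0 to 18 UMIs in the positive nuclei and were abundant enough to test through their Gfap-zero counts. A decrease was therefore favoured by the filter, and its size is loosely set. In nuclei of 2000 to 8000 UMIs, Unc5d (-3.05), Pcdh15 (-2.32), Il1rapl2 (-2.20), Car10 (-2.13) and Grm8 (-2.04) passed with smaller changes. Zfp804b (-1.42, edgeR adjusted p = 0.111) did not pass there. None of the 12 genes was abundant enough to test in nuclei low in other cell types' markers, described below. Pcdh15, a marker of oligodendrocyte precursors, stood at 19.1 ± 16.3 against 204 ± 50.3 CPM. The synaptic vesicle genes Syt1 and Snap25, markers of neurons, fell by 1.34 and 1.15 on the log2 scale. They were the 2 called of 8 tested neuron markers, and Pcdh15 was the 1 called of 3 tested precursor markers.

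Markers of other cell types moved with this contrast. The summed level of 10 neuron markers was 940 to 2048 CPM in the positive and 1401 to 2574 CPM in the Gfap-zero nuclei. All 10 had UMIs in both classes. The summed level of 7 precursor markers was 71 to 215 against 260 to 362 CPM, with no overlap. Oligodendrocyte markers (343 to 646 against 368 to 609 CPM) and microglial markers (17 to 156 against 21 to 51 CPM) overlapped. Summed endothelial markers (0 to 42.5 against 12.0 to 27.0 CPM) and mural markers (65.7 to 269 against 129 to 177 CPM) overlapped too. Of 7 endothelial markers, Pecam1, Cldn5, Flt1 and Cdh5 had no UMI in the positive nuclei. Of 6 mural markers Acta2, Rgs5, Kcnj8 and Abcc9 had none there. Nuclei with more than 10 neuron-marker UMIs made up 9.09% of the positive class (24) and 10.1% of the Gfap-zero class (309), where they were deeper than the rest, at a median of 4776 UMIs. Nuclei with more than 2 precursor-marker UMIs numbered 4 and 153. The part of RNA from other cells in the contrast was not tested.

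The contrast was therefore repeated, as a choice made after seeing these values, in nuclei with at most 10 neuron-marker, 2 precursor-marker, 5 oligodendrocyte-marker and 2 ependymal-marker UMIs. This kept 225 positive nuclei (22 to 58 per library) and 2570 Gfap-zero nuclei. In them 70 of 7080 genes (0.989%) passed, 44 higher (0.621%) and 26 lower (0.367%). DESeq2 called 39. The count moved with the libraries, to 46, 42 and 45 without saline replicate 1, 2 or 3 and to 31 without naloxone replicate 4. Of the 97 genes called higher before, 94 were tested again, all 94 with the same sign, and 30 passed. Of the 288 called lower, 162 were tested again, 114 with the same sign, and 17 passed. The median change of the retested lower genes went from -0.998 to -0.20, and that of the higher genes from 0.58 to 0.40.

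Tnc (log2 change 2.44 ± 0.28, edgeR adjusted p = 3.43e-08), Stk32a (2.37 ± 0.34), Ccdc148 (1.72 ± 0.27), Adamts9 (1.40 ± 0.21) and Fmn1 (1.18 ± 0.17) remained among the calls in these nuclei and passed whichever library was left out. Aldh1a1 (1.10), Cd38 (1.04), Stat3 (0.83), Pla2g7 (1.52), Slc6a11 (0.37), Ednrb (0.48) and Slc4a4 (0.27) were also called. Stat3 was lost without saline replicate 1 or 2, and Cd38 without naloxone replicate 4. Pla2g7, Slc6a11, Ednrb and Slc4a4 each failed when any 1 of 4 or 5 libraries was dropped. Nebl, a gene of the actin-binding nebulin family, was named here by the rule (466 ± 59.5 against 260 ± 63.8 CPM, log2 change 0.85, edgeR adjusted p = 2.33e-06), as was Plce1, a phospholipase C gene (0.79). Both passed whichever library was left out. Vcan, the versican gene of the matrix (1.05), Igsf21 (0.82), Fat1 (0.75) and Kcnd3 (0.73) were called too, and each was lost when at least 1 library was left out. Igfbp5 (0.98, edgeR adjusted p = 0.172), Agt (0.58, 0.0656), Fam20a (1.16, 0.267) and Samd11 (0.92, 0.506) no longer passed. Apoe (0.14, 0.844), Bmpr1b (0.15, 0.868), Slc7a11 (0.16, 0.816), Atp1b2 (0.25, 0.432) and Dtna (0.19, 0.340) also lost the call. So did Lrig1 (0.37, 0.369), Trpm3 (0.18, 0.286) and Lama2 (0.51, 0.107). Over the 13 transmitter uptake genes the median log2 change was 0.012 in these nuclei. Cd44 was too low to test.

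Among genes lower in these nuclei, Luzp2 averaged 1781 ± 552 against 2622 ± 171 CPM and was lower in 6 of 6 libraries (log2 change -0.58 ± 0.09, edgeR adjusted p = 8.6e-06). Frem2 (-1.32), an extracellular matrix gene, Efcab3 (-1.25), Lypd6 (-1.14), a modulator of nicotinic receptors, Nkain2 (-0.90) and Camk1d (-0.58), a calcium-calmodulin kinase gene, also passed with each library left out. Qng1, Gmpr, Ntmt2, Epha5, Ildr2, Slco1c1 and the clock gene Npas2 were called (-1.25 to -0.38) and each was lost when at least 1 library was left out. Syt1 (0.17), Spock3 (0.15) and Grm5 (0.13) changed sign and were not called. Syt1 and Snap25 (-0.21) are themselves among the neuron markers that were capped, so their values here are partly set by the choice of nuclei.

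**Figure D3:**
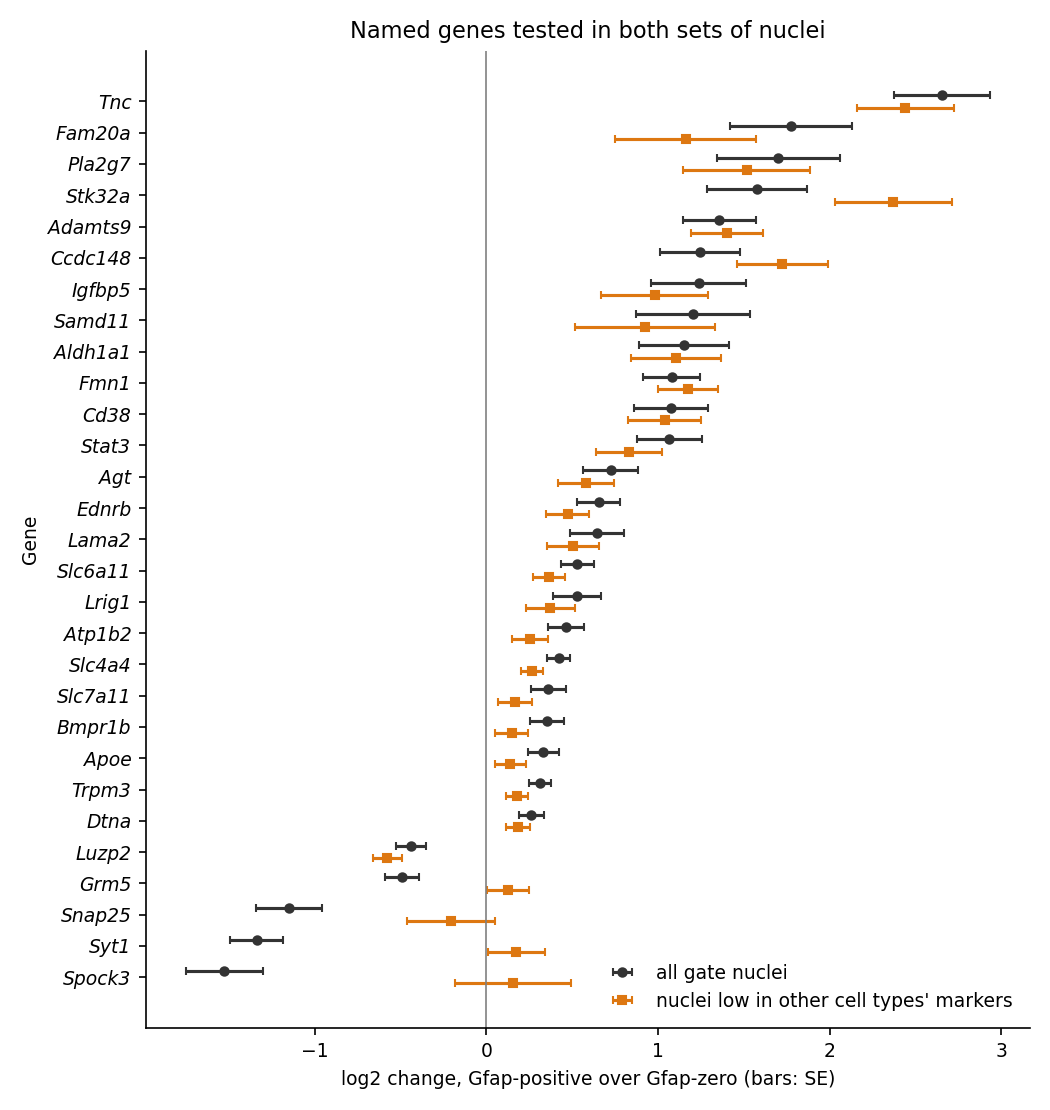
Log2 change (Gfap-positive over Gfap-zero, bars are SE) of the named genes tested in all gate nuclei (black circles) and in nuclei low in other cell types' markers (orange squares). Tnc, Stk32a, Ccdc148, Adamts9, Fmn1, Pla2g7, Fam20a, Aldh1a1 and Cd38 stay above 1 in both, while Syt1, Spock3 and Grm5 move from below to just above 0.

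Inside the population, levels followed the number of Gfap UMIs in different ways for different genes. These values are sums over the 6 libraries, with 95% Poisson intervals that cover counting error only, and are given without a test. Tnc was 17.0 CPM (14.4 to 19.8) in nuclei with no Gfap UMI, 44.0 (34.4 to 55.6) with 1, 109 (80.7 to 145) with 2, 146 (107 to 196) with 3 to 5 and 135 (84.4 to 204) with 6 or more. The pooled values at 2 or more Gfap UMIs overlapped within their intervals, but single libraries ran opposite ways. From 2 to 3 or more Gfap UMIs, Tnc went from 163 to 331 CPM in saline replicate 1 and from 63.8 to 274 CPM in naloxone replicate 4. It went from 114 to 17.8 CPM in saline replicate 2 and from 211 to 44.6 CPM in saline replicate 3. At 2 Gfap UMIs it was at 0 in naloxone replicates 5 and 6. Cd44 was 10.3 CPM with none, 11.4 (3.70 to 26.6) with 2, 32.5 (15.6 to 59.8) with 3 to 5 and 147 (94.1 to 219) with 6 or more. Adamts9 was 56.2, 84.3, 130 and 422 CPM in the same bins, and Stat3 65.5, 95.7, 133 and 251 CPM. For these 3 genes the step was largest at 6 or more Gfap UMIs. Naloxone replicate 5 and saline replicate 3 held 3 and 5 of those 47 nuclei, and naloxone replicate 4 held 16.

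Aqp4 went the same way, from 239 CPM in nuclei without Gfap to 649 (531 to 785) CPM at 6 or more. Gja1 stayed between 416 and 530 CPM and Gli3 between 811 and 949 CPM over all 5 bins. Luzp2 went down, from 2302 CPM at 0 through 2140 at 2 and 1551 at 3 to 5 to 1114 (958 to 1288) CPM at 6 or more. Slc6a11 went up from 547 CPM at 0 to 841 at 2 and 800 at 3 to 5, and stood at 539 (432 to 664) CPM at 6 or more. The glutamate transporter gene Slc1a2 stayed within 5839 to 7252 CPM. Single libraries spread widely in the top bin: Adamts9 ranged from 0 to 640 CPM and Luzp2 from 231 to 2237 CPM.

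**Figure D4:**
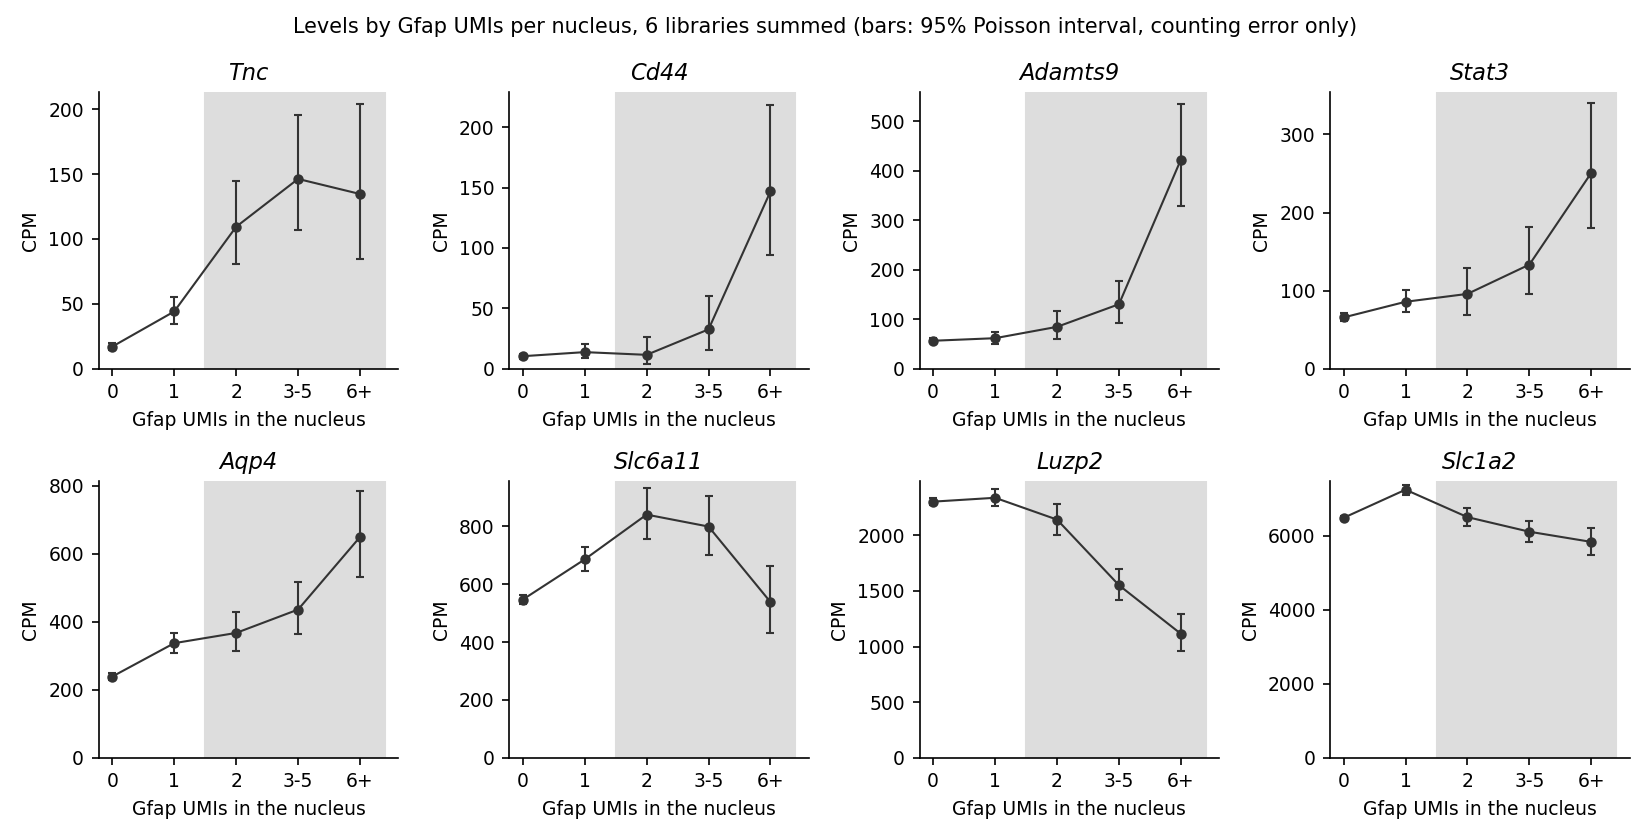
CPM of 8 genes, 6 libraries summed, by the number of Gfap UMIs in the nucleus (0, 1, 2, 3 to 5, 6 or more; 3057, 493, 132, 85 and 47 nuclei); bars are 95% Poisson intervals and the shaded bins are Gfap-positive. Cd44, Adamts9, Stat3 and Aqp4 are highest at 6 or more, the pooled Tnc level is 109 CPM at 2, Slc6a11 peaks at 2 and Luzp2 goes down.

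Counted by nuclei, Tnc had a UMI in 50 of the 264 nuclei (18.9%) against 109 of 3057 Gfap-zero nuclei (3.57%), and Adamts9 in 69 (26.1%) against 404 (13.2%). Cd44 had one in 20 nuclei (7.58%) against 71 (2.32%). By Gfap UMIs, Cd44 was found in 4 of 132 nuclei with 2, 6 of 85 with 3 to 5 and 10 of 47 with 6 or more. Of the 20 nuclei with Cd44, 14 (70% of them, 20.3% of the Adamts9 nuclei) also held Adamts9, and 9 (45%, 18% of the Tnc nuclei) held Tnc. No single nucleus held more than 8 of the 115 Tnc or 8 of the 146 Adamts9 UMIs. Of the 50 Tnc nuclei, 13 (26%, 16.5% of the Stat3 nuclei) held Stat3, which had a UMI in 29.9% of all positive nuclei. These shares depend on depth, and the median depth was higher in the positive class. At these UMI totals a nucleus without a UMI of a gene cannot be read as not expressing it.

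Naloxone was compared with saline in the Gfap-positive nuclei, to ask how these cells differ 1 h after the antagonist. No gene passed: 0 of 3388 (0%) by edgeR, with 219 at an unadjusted p under 0.05, and DESeq2 called 2, both lower. Without saline replicate 3 edgeR called 7, and without saline replicate 1 or naloxone replicate 4 or 5 it called 1, 2 and 1. CPM values are relative to the UMI total of the class. Nuclei with more than 10 neuron-marker UMIs were 12.3% ± 2.01 of the positive nuclei after saline (10.3 to 14.3) and 6.50% ± 1.82 after naloxone (4.41 to 7.69), without overlap and without a test. These shares rest on 16 and 8 nuclei (SD, n = 3 libraries each). The 10 neuron markers, none at 0, summed to 1503 CPM after saline and 1033 CPM after naloxone on average. In nuclei low in other markers, where these sums averaged 719 and 722 CPM, naloxone also gave 0 calls by edgeR (180 genes at an unadjusted p under 0.05). In the more numerous Gfap-zero nuclei 21 of 10581 genes (0.198%) passed, 19 higher (0.18%) and 2 lower (0.0189%). That count fell to 0 without saline replicate 1 or 2, 6 without naloxone replicate 5 and 8 without naloxone replicate 6; at an unadjusted p under 0.05 there were 699 and 922 genes without saline replicate 1 or 2. DESeq2 called 41 genes from all 6 libraries.

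Of 26 glucocorticoid response genes, 6 were tested in the Gfap-positive nuclei and none passed. Their log2 changes ran from -0.08 (Nr3c1) to 1.34 (Hif3a). Zbtb16, a zinc finger transcription factor gene, stood at 173, 297 and 200.2 CPM after saline and 388, 524 and 481 CPM after naloxone, so the groups did not overlap. Its log2 change was 1.07 ± 0.24 (edgeR adjusted p = 0.161), beside 1.04 ± 0.17 in Gfap-zero nuclei, where it passed (0.0352). Klf9 stood at 83.6, 93.5 and 91.5 CPM after saline and 228, 213 and 106 CPM after naloxone (1.02 ± 0.33, adjusted p = 0.506), beside 1.02 ± 0.13 in Gfap-zero nuclei (0.0120). Hif3a (1.34 ± 0.37) and Tsc22d3 (1.02 ± 0.37) had unadjusted p under 0.05 but adjusted p of 0.418 and 0.634. Over these 6 genes the median log2 change was 1.02, against -0.0057 over all genes tested, and 4 had an unadjusted p under 0.05. The list was chosen with earlier results of these data known, so its median is a description and not a test. Fkbp5, a chaperone of the glucocorticoid receptor and the largest increase among the calls in Gfap-zero nuclei (2.53 ± 0.39), was below the filter in the positive class. It stood there at 23.9, 42.5 and 34.3 CPM after saline and 41.1, 241 and 43.7 CPM after naloxone, with the high value in naloxone replicate 5.

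Heat shock chaperone genes had mostly negative values, with a median log2 change of -0.53 over 10 tested genes and 3 at an unadjusted p under 0.05. This list too was chosen with earlier results known, so its median is a description. Hsph1, which encodes the co-chaperone HSP105, stood at 137, 102 and 114 CPM in the positive nuclei after saline and 41.1, 14.2 and 37.5 CPM after naloxone, without overlap (-1.72 ± 0.39, edgeR adjusted p = 0.177). It rested on 55 UMIs after saline and 16 after naloxone, and was testable in this class only through the saline libraries. In Gfap-zero nuclei it fell by 1.12 on the log2 scale (0.0188). Chordc1 (-0.93) and Hspa4l (-0.92) were the others of the 3, named after their values were seen, and Dnaja1 was -0.58 ± 0.42 in the positive and -0.76 ± 0.12 in the Gfap-zero nuclei, where it passed. Fgf2, a growth factor gene, was 0.70 ± 0.32 in the positive (adjusted p = 0.756) and 1.19 ± 0.16 in the Gfap-zero nuclei, where it rose (0.0155). The 2 classes come from the same libraries, so their values share the same tissue.

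The genes with the smallest p in the positive nuclei, chosen after their values were seen, included Luzp2, Erbb4 and Kcna1. Luzp2 stood at 2252, 1887 and 2391 CPM after saline and 1282, 1332 and 1286 CPM after naloxone, without overlap (log2 change -0.73 ± 0.15, adjusted p = 0.129 by edgeR). A single nucleus of saline replicate 3 held 78 of its 1598 UMIs. In Gfap-zero nuclei it was -0.14 ± 0.09. Luzp2 also went down with Gfap UMIs; its part in this difference was not tested. The share of positive nuclei with 6 or more Gfap UMIs was highest in naloxone replicate 4 (16 of 68). In nuclei with 2 Gfap UMIs Luzp2 was 2616, 1970.2 and 2640.5 CPM after saline and 1822, 1274 and 2059 CPM after naloxone, where the groups overlapped. In those with 3 or more it was 1741, 1796 and 2153 CPM and 740.05, 1451 and 1051 CPM, where they did not. Erbb4, the neuregulin receptor gene, was 0.79 ± 0.17 and the potassium channel gene Kcna1 2.07 ± 0.46 (adjusted p = 0.161 for both). Kcna1 stood at 17.9, 8.50 and 51.5 CPM after saline (13 UMIs) and 132, 113 and 106 CPM after naloxone (54 UMIs). Its saline libraries were below the filter, so it was testable only through the group where it was high, and its difference is not independent of the filter. Tnc (-0.61 ± 0.50, adjusted p = 0.874) and Stat3 (-0.15 ± 0.33, adjusted p = 0.960) did not pass.

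**Figure D5:**
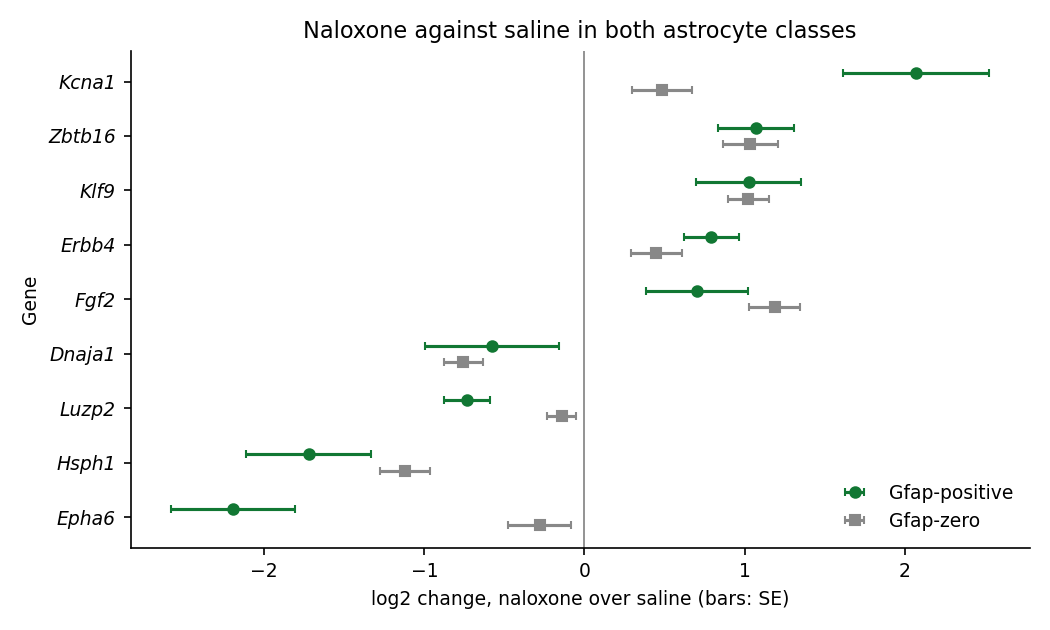
Log2 change (naloxone over saline, bars are SE) in Gfap-positive (green circles) and Gfap-zero nuclei (grey squares) for the named genes tested in both classes. Zbtb16 and Klf9 lie near 1 in both classes. Epha6, Luzp2, Kcna1, Hsph1 and Erbb4 lie farther from 0 in the positive class, and Fgf2 and Dnaja1 in the Gfap-zero class. In the positive class Kcna1 and Hsph1 were testable only through the group where each was higher. Only Epha6 had an adjusted p under 0.05 for the difference between the classes.

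The test of whether the naloxone difference itself differed between the classes called 1 of 9361 genes (0.0107%), Epha6, an ephrin receptor gene (difference of log2 changes -1.91 ± 0.37, edgeR adjusted p = 0.0376; DESeq2 called 0 genes, with 154 at an unadjusted p under 0.05). Epha6 stood at 143, 399 and 418 CPM in the positive nuclei after saline and 82.1, 42.5 and 62.5 CPM after naloxone. The values rested on few nuclei: 1 nucleus of saline replicate 3 held 68 of the 175 Epha6 UMIs of the class. Positive nuclei that were not low in other cell types' markers, 20 after saline, held 135 of the 144 Epha6 UMIs of the saline group. In nuclei low in those markers Epha6 averaged 25.2 ± 15.3 CPM after saline and 53.3 ± 10.7 CPM after naloxone, and the difference between the classes changed sign to 1.20 (adjusted p = 0.994). The call was also lost without saline replicate 2 (0.0532) or 3 (0.146), and with called doublets removed (0.936).

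Opioid receptor genes were near the limit of detection in the Gfap-positive nuclei. Oprm1, the mu receptor gene, had 10 UMIs in the 264 nuclei, at 5.72 to 14.2 CPM per library, beside 12.9 CPM in Gfap-zero nuclei. Oprk1 had 2 UMIs, Oprd1 1 and Oprl1 0. None was abundant enough to test in the positive class.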

How the data were processed

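Single-nucleus RNA-seq libraries were deposited as 6 gene-by-barcode matrices of raw UMI counts, filtered to 64260 barcodes, and were made with Cell Ranger 9.0.1, per the file headers. The build mRatBN7.2, Seurat 5.2.1 and R 4.4.0 are named in the submitters' processing notes without their roles. Counts were summed per library over Gfap-positive and over Gfap-zero nuclei, so that libraries, not nuclei, were the replicates. Sums were tested with edgeR 4.0.16 (TMM scaling, filterByExpr, quasi-likelihood F test, Benjamini-Hochberg adjustment, threshold 0.05), with library as a block between the classes, since both classes come from the same library. DESeq2 1.42.0, other filters and leaving out each library were alternatives, and the tests were checked on simulated data. There the naloxone test in the positive nuclei recovered 49% of genes changed by a log2 of 1 and 94% at 2. The test of the difference between the classes recovered 10% and 51%. Low counts of calls in these 2 tests thus do not show that differences were absent. Doublets, called against simulated pairs of nuclei (2649 of the 61609), were kept in the main sums and removed in an alternative. Levels are CPM of the UMI sum.

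Named genes were up to 12 per direction by size among calls with a mean of at least 10 CPM and the same direction in all 6 libraries (or groups that did not overlap), plus up to 4 calls per gene list. The members, gene lists and tests were chosen with earlier results of these data known. Gene names are those paired with identifiers in the files, and list genes without a symbol there were not analysed here. Promoter windows come from RefSeq (GRCr8) and are used for sequence only.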

Additional observations from a re-analysis of the deposited data

Results flagged for a closer look

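Epha6 was the 1 gene whose naloxone difference differed between the Gfap-positive and Gfap-zero nuclei, by -1.91 on the log2 scale (edgeR adjusted p = 0.0376). In the positive nuclei it was lower in each naloxone library than in each saline library (62.4 ± 19.8 against 320.1 ± 153 CPM, n = 3 each), while in the Gfap-zero nuclei the groups overlapped (307 ± 75.1 against 374 ± 100.3 CPM). In the saline group 135 of the 144 Epha6 UMIs lay in 20 positive nuclei that also carried markers of other cell types. Without such nuclei the difference was 1.20 (adjusted p = 0.994), and with called doublets removed it was -0.98 (adjusted p = 0.936).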

How the results depend on the processing

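The Gfap contrast called 385 genes. It called 98 in nuclei of 2000 to 8000 UMIs, 205 with Gfap-positive set at 3 or more UMIs, 70 in nuclei low in other markers and 303 to 369 with 1 library left out. Within those low-marker nuclei the 70 became 39 with DESeq2 and 31 to 72 with 1 library left out, and Spock3 (0.15), Grm5 (0.13) and Syt1 (0.17) changed sign. Without the replicate block by library the contrast called 258 genes (55 higher, 203 lower).

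In the positive nuclei naloxone gave 0 calls, and 2 with DESeq2, 8 with no filter, 1 in the UMI window and 0 to 7 with 1 library left out. In Gfap-zero nuclei it gave 21, and 41 with DESeq2, 246 with no filter, 3 in the UMI window, 74 in low-marker nuclei and 0 to 30 with 1 library left out. The difference between the classes gave 1 call, and 2 with no filter, 4 at 3 or more Gfap UMIs, 1 to 11 with 1 library left out, and 0 with DESeq2, 1000 genes per nucleus, doublets removed, the UMI window, 1 or more Gfap UMIs, or low-marker nuclei, where Epha6 turned to 1.20. The causes of these changes were not tested.

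With 1 library left out the difference in share ran from -1.02 to 2.38 points and that in Gfap level from -20.6 to 40.9 CPM. No paired analysis was possible for naloxone because the groups share no replicate numbers. Between 70545 and 219204 UMIs per library limit the positive class to 3388 testable genes. The low-marker nuclei were chosen after seeing the data.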

Other observations

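Nuclei with a UMI of Xist, which is transcribed in female cells, can be counted separately in these mixed-sex libraries. In naloxone replicate 4, 14.9% of 316 gate nuclei with Xist were Gfap-positive, against 7.27% of those without. In the other 5 libraries the shares were 4.58% to 9.13% with Xist and 3.797% to 9.36% without.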
